A study of Mus musculus with 11 samples.

Results

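Cultured lung mesenchymal cells with 1 working copy of *Sp3* (Sp3+/-) were set against cells with both copies (Sp3+/+, here WT). The members were 4 libraries whose genotype label is Sp3+/- and 4 whose label is Sp3+/+, out of 11 RNA-seq libraries in all, and the remaining 3 were Sp3-/-. Counts were listed for 24062 genes, and 13833 of them reached a CPM (counts scaled to a common library total) above 1 in at least 1 of the 8 libraries and were tested. The cells came from mouse fetal lungs at embryonic day 15, taken by collagenase digestion and quick attachment to plastic and then passaged, so every group was a short-term culture and not intact lung. The mutant allele was carried in the germ line of a heterozygous line and was not restricted to a cell type, and the strain of the mice is not given in the sources used here. Libraries are named by the first numbers of their titles. WT values are given in the order 468-4, 685-2, 697-1, 697-3, and Sp3+/- values in the order 468-3, 685-5, 685-7, 697-4. No label says that the 4 libraries of a genotype came from separate fetuses, so the p-values measure the spread between these libraries.

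*Sp3* is a zinc finger transcription factor that binds GC-rich elements (GC boxes) in promoters and shares this binding preference with its close relative *Sp1*. It can raise or lower transcription depending on the promoter. Mesenchyme is the connective tissue of the developing lung, which lays down collagen and elastic fibres, forms airway and vessel smooth muscle, stores lipid in lipofibroblasts and sends growth signals to the epithelium. The question put to these libraries was what a single *Sp3* copy suffices for. The answer rests on how narrow the interval around each gene's estimate is, since a p-value that misses its threshold does not show that 2 genotypes are alike.

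The sequences before the start sites of 4 genes show the element in question. They are shown because *Sp3* is the gene whose dose was altered, *Sp1* is its nearest relative, and *Ccne1* and *Axin2* are 2 of the genes that the study names. Each is the 250 bases upstream of a RefSeq start site (GRCm38.p6), written 5′ to 3′ on the strand of the gene, with the letters GGGCGG or their reverse complement CCGCCC in capitals. The windows are chr2:72980447-72980696 (minus strand) for *Sp3*, chr15:102406066-102406315 (plus strand) for *Sp1*, chr7:38107491-38107740 (minus strand) for *Ccne1* and chr11:108920099-108920348 (plus strand) for *Axin2*.
Sp3: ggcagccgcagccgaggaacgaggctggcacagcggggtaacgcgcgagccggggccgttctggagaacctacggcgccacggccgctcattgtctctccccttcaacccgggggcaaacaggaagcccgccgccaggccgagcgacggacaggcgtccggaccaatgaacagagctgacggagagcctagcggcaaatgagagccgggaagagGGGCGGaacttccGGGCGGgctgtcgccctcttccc
Sp1: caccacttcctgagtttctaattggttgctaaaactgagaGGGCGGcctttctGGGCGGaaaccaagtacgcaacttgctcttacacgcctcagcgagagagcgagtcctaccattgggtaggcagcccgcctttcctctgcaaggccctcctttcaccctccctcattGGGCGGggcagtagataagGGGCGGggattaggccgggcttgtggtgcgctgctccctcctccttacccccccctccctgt
Ccne1: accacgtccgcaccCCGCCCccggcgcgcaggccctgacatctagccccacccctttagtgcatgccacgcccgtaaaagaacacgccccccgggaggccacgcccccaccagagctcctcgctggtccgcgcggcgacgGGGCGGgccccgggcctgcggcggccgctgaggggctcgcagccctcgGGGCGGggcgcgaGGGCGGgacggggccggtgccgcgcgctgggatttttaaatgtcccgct
Axin2: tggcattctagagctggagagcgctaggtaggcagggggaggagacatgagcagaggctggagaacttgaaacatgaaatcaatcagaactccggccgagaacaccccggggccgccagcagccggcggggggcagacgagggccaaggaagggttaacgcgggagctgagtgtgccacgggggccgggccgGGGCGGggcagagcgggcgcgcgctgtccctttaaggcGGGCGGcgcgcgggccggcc
The motif was found 2 times before *Sp3*, 4 times before *Sp1*, 4 times before *Ccne1* and 2 times before *Axin2*. Of 32851 such windows of 250 bases, 32.7% held it at least once, and 16.7% held it 2 times or more. A match describes the letters and does not show binding.

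The libraries held 13842791 to 59297495 reads on genes in Sp3+/- (median 32852024) and 14113788 to 35351093 in WT (median 29805245). WT 468-4 and Sp3+/- 697-4, the only 2 of the 8 whose titles end without a number after CTRL, stood apart. Over the 13833 genes their Spearman correlation with each other was 0.989, with the other 6 libraries 0.959 to 0.980, and among those 6 it was 0.986 to 0.994. The sources do not explain the title endings. Sp3+/- 468-3 has the ending 2, and the remaining libraries of the 8 have the ending 3. The name under which the counts of Sp3+/- 697-4 were deposited ends in 2, unlike its title, and the title was used. There was 1 library without a title ending in each genotype, and the values that rest most on these 2 are given with and without them. All 3 Sp3-/- titles also end without a number, so in any comparison with Sp3-/- the title ending and the genotype cannot be told apart beyond what 1 WT and 1 Sp3+/- library allow. *Xist*, the RNA that coats the inactive X chromosome, was at 617 CPM in Sp3+/- 685-5 and at most 0.414 in the other 7, and the Y-linked *Ddx3y* was at 0.0844 CPM in 685-5 and at least 85.0 in the others. One Sp3+/- library therefore had the female pattern and 7 libraries the male one.

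Of 29 markers of the mesenchyme, 27 were detected in all 8 libraries, with at least 5192 reads on *Pdgfrb*, 776 on *Tbx4* and 626 on *Foxf1*. The markers *Nkx2-3* and *Meox2* were at 0 in at least 1 library, and *Hhip* had as few as 4 reads. The epithelial *Epcam* and *Cdh1*, the surfactant gene *Sftpc*, the endothelial *Cldn5* and the globin gene *Hba-a1* were at 0 in at least 1 of the 8 libraries, and the highest of their values was 4.56 CPM, for *Sftpc* in WT 685-2. Of 16 endothelial markers, however, 11 were detected in all 8 libraries, with at least 381 reads on *Kdr*, a receptor for VEGF. Of 16 epithelial markers 7 were, with at least 370 reads on the keratin *Krt18*. Erythroid markers were detected in all 8 in 3 of 12 cases, with at least 50 reads on *Alas2*, at 1.98 to 15.9 CPM. The summed level of the endothelial markers was 45.9 to 131 CPM in WT and 57.7 to 104 CPM in Sp3+/-, and that of the epithelial markers 31.5 to 64.5 CPM and 41.6 to 66.8 CPM. Macrophage genes were detected in all 8, with at least 77 reads on *Ptprc*, the CD45 antigen of leukocytes, and at least 296 on *Csf1r*, the receptor for macrophage growth factor. In bulk RNA, fewer cells of a type and less RNA per cell cannot be told apart.

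*Sp3* itself was lower on average in Sp3+/- cells, by less than 2-fold. Its level was 92.1, 61.3, 108 and 78.7 CPM in the 4 WT libraries, 52.4, 62.5, 70.8 and 56.4 CPM in the 4 Sp3+/- libraries and 18.7, 17.9 and 14.8 CPM in Sp3-/- 685-1, 697-2 and 697-5. Sp3+/- 685-5 and 685-7 were higher than WT 685-2, so the genotypes overlapped, while all Sp3-/- values lay far below both. Means were 85.0 ± 19.7 CPM in WT (SD, n = 4), 60.5 ± 8.0 in Sp3+/- (SD, n = 4) and 17.1 ± 2.10 in Sp3-/- (SD, n = 3). The log2 fold change of Sp3+/- against WT was -0.48 (SE 0.17, 95% interval -0.88 to -0.08), and the adjusted p over all genes was 0.999943 (edgeR quasi-likelihood test). Thus Sp3+/- cells held 71.6% of the WT level, with bounds of 54.4% and 94.3%.

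A level 2-fold below WT lay outside that interval. However, in Sp3-/- cells 20.2% of the WT level was still counted over the gene, and the point midway between the WT and Sp3-/- means was 51.0 CPM, or -0.74 on the log2 scale, which lay inside the interval. None (0) of the 4 Sp3+/- libraries was below that midpoint. Which exons the remaining Sp3-/- reads came from cannot be seen in counts per gene. The exact 2-sided permutation test of the 8 log2 CPM values gave p = 0.0857, where 70 splits allow no p below 0.0286. Leaving out single libraries moved the log2 fold change between -0.61 (without WT 685-2) and -0.35 (without WT 697-1). Without WT 468-4, WT 697-1, Sp3+/- 468-3 or Sp3+/- 697-4 the interval reached above 0, and without Sp3+/- 685-7 it reached from -1.01 to -0.13 and so took in a 2-fold lower level. Without both libraries that lack a title ending it was -0.40 (-0.88 to 0.07). In the fit of all 11 libraries, the log2 fold change of Sp3-/- against Sp3+/- cells was -1.82 (SE 0.19, edgeR adjusted p = 9.17e-04).

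**Figure D1:**
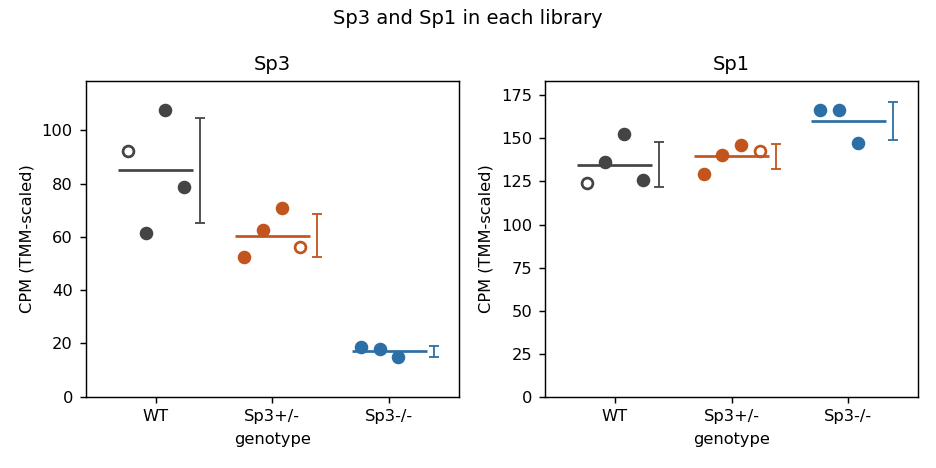
Level of *Sp3* and *Sp1* in each library (CPM after TMM scaling, axes from 0) by genotype. Points are libraries, open points the WT and Sp3+/- libraries without a title ending, horizontal lines group means and error bars 1 SD. Sp3+/- libraries lay between 52.4 and 70.8 CPM of *Sp3*, overlapping WT at 61.3 to 108 and above Sp3-/- at 14.8 to 18.7, while *Sp1* overlapped between WT and Sp3+/-.

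*Sp1*, which binds the same boxes, was at 124, 136, 153 and 126 CPM in WT and 129, 141, 146 and 143 CPM in Sp3+/-. The Sp3+/- values lay inside the WT range, and the log2 fold change was 0.06 (-0.13 to 0.25), the parentheses giving here and below the 95% interval. A *Sp1* level that differed by 1.5-fold in either direction lay outside that interval. *Sp2* and *Sp4*, further members that bind GC-rich DNA, differed by 0.08 (-0.19 to 0.35) and 0.21 (-0.20 to 0.61). Of the 26 Sp and Klf genes listed, 19 were tested, 18 had an interval within 2-fold and 10 within 1.5-fold, and their median log2 fold change was -0.06. The exception at 2-fold was *Klf12*, at -0.28 (-1.21 to 0.66).

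Besides *Sp3*, only *Klf2*, a shear-responsive factor of the same zinc finger family, had p below 0.05 before adjustment among these 19 (2.26% of all genes). It was at 5.40, 5.73, 5.97 and 5.33 CPM in WT and 4.66, 4.35, 4.68 and 4.38 CPM in Sp3+/-. Every Sp3+/- value was below every WT value, at a log2 fold change of -0.30 (SE 0.13, 95% interval -0.59 to -0.01) that was not called (edgeR adjusted p = 0.999943). In Sp3-/- cells, *Klf2* was at 8.09, 9.09 and 6.66 CPM, higher than both other genotypes. Tested genes that start within 1000 kb of *Sp3* were found by their RefSeq symbol, so any counted under another symbol are left out. The 11 found had intervals within 2-fold in all cases and within 1.5-fold in 7, with log2 fold changes from -0.28 to 0.10. The lowest belonged to *Sp3os*, the transcript on the opposite strand that overlaps *Sp3*. Its reads cannot be told from those of *Sp3* where a count ignores strand, and the strand setting is not given in the sources used here.

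Across all 13833 genes, none was called between Sp3+/- and WT, 0% at an adjusted p below 0.05 by edgeR, with a smallest adjusted p of 0.999943. Before adjustment 312 genes, or 2.26%, had p below 0.05, of which 165 were higher and 147 lower in Sp3+/-. In 194 genes, or 1.4%, the 4 values of a genotype all lay on one side of the other 4. Limma-voom also called 0 genes, with 387 at an unadjusted p below 0.05, and DESeq2 called 2. The same test found 3977 of 14130 genes, or 28.1%, between Sp3-/- and WT, and 3607, or 25.5%, between Sp3-/- and Sp3+/-, in a fit of all 11 libraries in which these comparisons share libraries.

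What the absence of calls limits is set by the width of the intervals. The median log2 fold change was -0.01, with 5% of genes below -0.39 and 5% above 0.30, and the median of the absolute values was 0.08. The 95% interval lay wholly within 2-fold for 11591 genes (83.8%) and within 1.5-fold for 9003 (65.1%). By 2 one-sided tests against the same bounds with Benjamini-Hochberg adjustment, 12028 genes (87.0%) were within 2-fold and 9389 (67.9%) within 1.5-fold. The median half-width of an interval was 1.26-fold, and 10% of genes had one under 1.13-fold and 10% one over 1.95-fold. Of the 2242 genes whose interval was not within 2-fold, 2078 had an estimate within 2-fold, so that for most of them the spread and not the estimate set the limit. A single gene, *Xist*, had an interval wholly beyond 2-fold, and nearly all of its reads came from Sp3+/- 685-5.

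Width followed abundance. Of the 739 genes with a mean under 1 CPM, 17.3% had an interval within 2-fold, compared with 67.0% of 3458 genes at 1 to 10 CPM, 94.5% of 7459 at 10 to 100 CPM and 96.5% of 2177 at 100 CPM or more. The median half-width was 2.09-fold, 1.52-fold, 1.20-fold and 1.19-fold in these classes, so it narrowed little above 10 CPM. Most narrow among genes over 5 log2 CPM were *Vps26b*, of the retromer that sorts cargo in endosomes, at 0.06 (-0.07 to 0.18), the phosphatase subunit *Ppp2r1b* at -0.02 (-0.14 to 0.11), *Cebpz* at 0.01 (-0.11 to 0.14), the kinase *Stk35* at 0.00 (-0.13 to 0.12) and the elongation factor subunit *Eef1d* at 0.00 (-0.13 to 0.13). *Eef1d* was at 141, 145, 141 and 145 CPM in WT and 144, 142, 141 and 140.4 CPM in Sp3+/-. These 8 values spanned less than 5 CPM, whereas Sp3-/- cells had 112, 108 and 93.3 CPM.

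**Figure D2:**
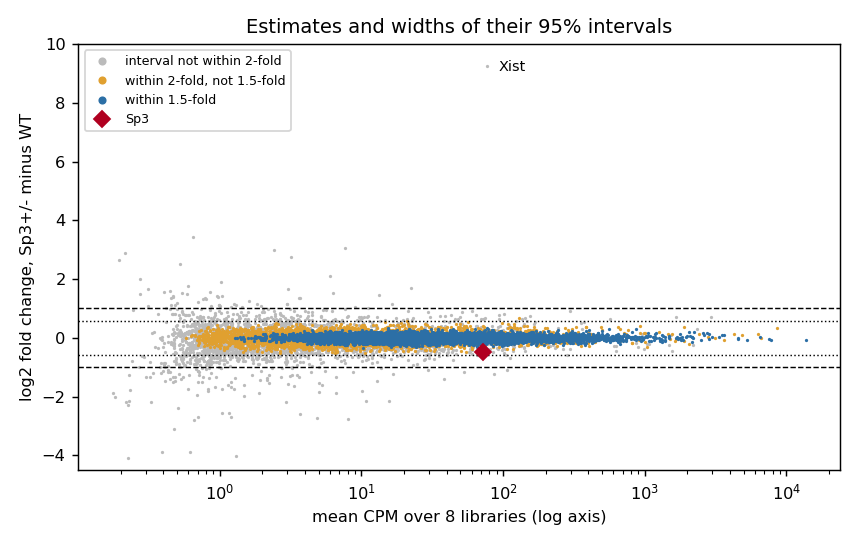
Log2 fold change of Sp3+/- against WT for each of the 13833 genes over its mean level (CPM, log axis). Colours give whether the 95% interval lay within 1.5-fold (9003 genes), within 2-fold only, or neither, dashed lines mark 2-fold and dotted lines 1.5-fold, the diamond is *Sp3* at -0.48 and the isolated point *Xist* at 9.26.

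Genes of general cell machinery had the narrowest intervals. All 31 respiratory chain genes, which encode the mitochondrial complexes of electron transport, had intervals within 1.5-fold, and their median log2 fold change was -0.04. The share was 65.1% over all genes, but 82.8% over genes at 10 to 100 CPM and 87.4% over those at 100 CPM or more. *Ndufv1*, a complex I subunit, was at 79.3, 76.9, 73.3 and 78.9 CPM in WT and 79.5, 76.9, 73.4 and 80.4 CPM in Sp3+/-, a log2 difference of 0.02 (-0.13 to 0.16). Of 34 genes for RNA polymerase II and its general factors, 33 were within 2-fold and 31 within 1.5-fold, with a median of -0.01. The exception at 2-fold was *Polr2k*, a small polymerase subunit with a WT mean of 0.937 ± 0.189 CPM (SD, n = 4), at -0.38 (-1.19 to 0.44). *Gtf2f1*, a subunit of TFIIF, was the single gene of this list whose genotypes did not overlap, where 1.4% of all genes did not. It was at 94.4, 83.5, 80.3 and 94.3 CPM in WT and 99.6, 97.5, 95.9 and 108 CPM in Sp3+/-. The Sp3+/- values were all higher, by 0.19 (0.01 to 0.38), an interval within 1.5-fold, and the gene was not called (edgeR adjusted p = 0.999943).

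Cholesterol synthesis genes were all within 2-fold, 21 of 21, and 17 of them were within 1.5-fold, with a median log2 fold change of -0.04. In Sp3-/- cells 16 of these 21 fell and 1 rose against WT (edgeR, 11 libraries), where 28.1% of all genes were called. The median of the 21 genes against WT was -0.83 in Sp3-/- cells.

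Of 16 reference genes often used for normalisation, 16 were within 2-fold and 13 within 1.5-fold. *Rplp0*, a ribosomal stalk protein, differed by -0.05 (-0.23 to 0.13), and *Ywhaz*, a 14-3-3 adaptor, by 0.03 (-0.16 to 0.23). *Pgk1*, an enzyme of glycolysis, was the exception to overlapping groups, where 1.4% of all genes did not overlap. It was at 18.5, 18.8, 16.3 and 21.5 CPM in WT and 16.1, 12.1, 15.3 and 13.5 CPM in Sp3+/-. All Sp3+/- values were lower, at a log2 fold change of -0.39 (-0.68 to -0.11) (edgeR adjusted p = 0.999943). Of 17 genes of the p53 pathway and growth arrest, not all of them p53 targets, 15 were within 2-fold and 13 within 1.5-fold. The cell cycle inhibitor *Cdkn1a* differed by 0.15 (-0.19 to 0.48). Not within 2-fold were the inhibitors *Cdkn1c*, at -0.30 (-1.04 to 0.44), and *Cdkn2a*, at -0.34 (-1.40 to 0.73). Of 18 interferon-induced genes 12 were within 2-fold.

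The study's text names 32 genes, which it discusses for its comparison of Sp3-/- with WT cells on these libraries, so they are no independent evidence of a direction in Sp3-/- cells. In Sp3+/- cells none (0) was called, and 2 had p below 0.05 before adjustment (2.26% of all genes). Of the 32, 8 were higher and 24 lower, and the median log2 fold change was -0.09. The interval lay within 2-fold for 20 of the 32, a smaller share than over all genes (83.8%), and within 1.5-fold for 9. Against WT, 5 of the 32 rose and 20 fell in Sp3-/- cells (edgeR, 28.1% of all genes called), and against Sp3+/- cells 6 rose and 19 fell (25.5%), 2 comparisons that share the Sp3-/- libraries. With the presence of a title ending as a covariate, 26 of the 32 Sp3+/- intervals were within 2-fold, and without both libraries that lack one, 22 were.

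**Figure D3:**
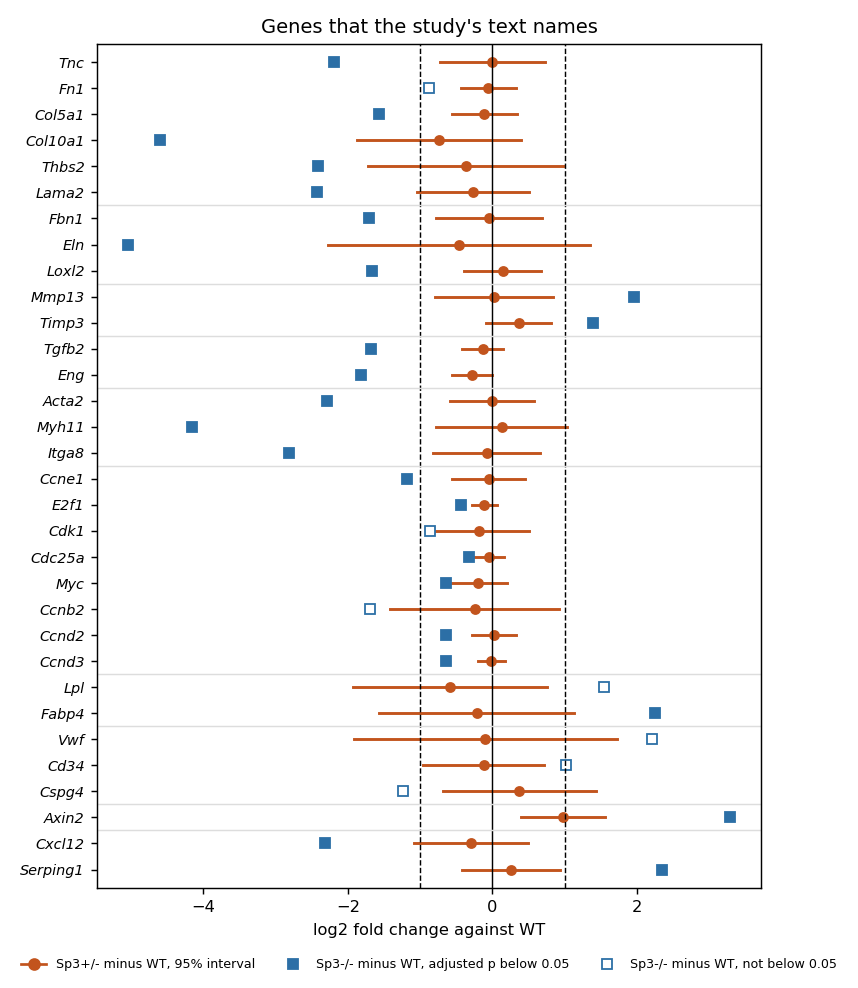
Log2 fold change against WT (x axis) of the 32 genes that the study names, grouped by role. Orange points and bars are the Sp3+/- estimates and 95% intervals, blue squares the Sp3-/- estimates (filled where the edgeR adjusted p was below 0.05), and dashed lines mark 2-fold. Every Sp3+/- interval but that of *Eng* (-0.56 to -0.01) and *Axin2* (0.39 to 1.55) covered 0.

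The 6 matrix genes of this list all had lower estimates in Sp3+/- cells, and 3 intervals lay within 2-fold. *Fn1*, which encodes fibronectin, was at 12553, 11951, 14885 and 16762 CPM in WT and 14731, 12844, 15238 and 10791 CPM in Sp3+/-, with overlapping groups and a log2 fold change of -0.06 (-0.44 to 0.32). *Col5a1*, a chain of the collagen that starts fibril assembly, was at 975, 1429.7, 1682 and 1667 CPM in WT and 1326, 1390.3, 1561 and 1019.7 CPM in Sp3+/-. These values overlapped as well, at -0.11 (-0.56 to 0.34), whereas in Sp3-/- cells *Col5a1* was at 574, 550.4 and 329.8 CPM and fell, at a log2 fold change of -1.57 against WT (edgeR adjusted p = 0.00253). *Tnc*, which encodes the matrix protein tenascin C, was at 1696, 2344, 3579.97 and 4943 CPM in WT and 2815, 3358, 3871 and 2404 CPM in Sp3+/-, a difference of -0.01 (-0.73 to 0.72). The Sp3+/- values of *Tnc* lay inside the WT range, and Sp3-/- libraries had 551, 900.3 and 611 CPM, all below it.

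*Col10a1*, a network-forming collagen, had the lowest estimate of the 6. It was at 8.66, 9.33, 13.0 and 7.31 CPM in WT and 2.30, 6.18, 11.5 and 2.34 CPM in Sp3+/-. Sp3+/- 685-7 lay inside the WT range and the other 3 Sp3+/- libraries below it, which gave -0.74 (-1.88 to 0.40) and an interval that reached past 2-fold. In Sp3-/- cells it was at 0.473, 0.397 and 0.205 CPM. Among 35 extracellular matrix genes in a broader list, 23 were within 2-fold and 12 within 1.5-fold, with a median of -0.01, and in Sp3-/- cells 3 rose and 15 fell against WT, where 28.1% of all genes were called. The main fibrillar chains *Col1a1* and *Col1a2* differed by -0.05 (-0.57 to 0.46) and 0.14 (-0.40 to 0.67).

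Elastic fibre genes had wide intervals. *Eln*, which encodes the elastin precursor, was at 132, 962, 1479.5 and 348 CPM in WT, 604, 776, 633 and 85.0 CPM in Sp3+/- and 23.2, 40.1 and 1.23 CPM in Sp3-/-. The lowest WT value and the lowest Sp3+/- value were those of 468-4 and 697-4, the 2 libraries without a title ending, and the log2 fold change of -0.46 (-2.28 to 1.35) had an interval that reached past 2-fold in both directions. Without those 2 libraries it was -0.46 (-1.47 to 0.55). *Fbn1*, the fibrillin of the microfibril scaffold, was at 742, 1774, 2206 and 2043 CPM in WT and 1607, 1714, 2015 and 1147 CPM in Sp3+/-, at -0.05 (-0.78 to 0.68). *Loxl2*, which crosslinks collagen and elastin, was at 1008, 1242, 1477 and 2183 CPM in WT and 1258, 1664, 1823 and 1741 CPM in Sp3+/-, at 0.14 (-0.39 to 0.68). The Sp3+/- libraries of *Loxl2* all lay inside the WT range.

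Of the 21 elastic fibre genes of the broader list, 15 were within 2-fold, 6 within 1.5-fold, and the median was -0.04. Without the 2 libraries that lack a title ending, 19 were within 2-fold and 13 within 1.5-fold. In Sp3-/- cells 15 of the 21 fell and none (0) rose against WT by edgeR, where 28.1% of all genes were called. Of the genes for matrix breakdown and its inhibition, *Mmp13*, a collagenase, differed by 0.02 (-0.80 to 0.83). *Timp3*, which inhibits metalloproteinases, was at 2231, 1700.03, 1258 and 1469.5 CPM in WT and 1904, 2352, 1715 and 2537 CPM in Sp3+/-. Its groups overlapped at 0.36 (-0.09 to 0.81), and Sp3-/- libraries had 5566, 4429 and 3063 CPM, all higher than the highest of the 8.

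Both genes of TGF-beta signalling on the study's list had narrow intervals. *Tgfb2*, a ligand, was at 82.6, 68.5, 95.5 and 91.1 CPM in WT, 70.4, 85.1, 82.5 and 68.1 CPM in Sp3+/- and 28.3, 26.3 and 24.0 CPM in Sp3-/-. WT and Sp3+/- overlapped, with a log2 fold change of -0.13 (-0.42 to 0.15), while it fell in Sp3-/- cells, at -1.69 against WT (edgeR adjusted p = 2.42e-04). *Eng*, which encodes the co-receptor endoglin, was at 90.9, 73.8, 69.3 and 73.4 CPM in WT, 70.0, 64.2, 65.5 and 51.4 CPM in Sp3+/- and 20.8, 19.8 and 25.2 CPM in Sp3-/-. Only Sp3+/- 468-3 reached into the WT range, and the difference of -0.28 (SE 0.12, 95% interval -0.56 to -0.01) was not called (edgeR adjusted p = 0.999943) and lay within 1.5-fold. Of 16 genes of the pathway, 12 were within 2-fold and 10 within 1.5-fold, with *Smad2* and *Smad4*, which carry the signal to the nucleus, at 0.00 (-0.17 to 0.18) and -0.01 (-0.23 to 0.20).

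Smooth muscle genes did not separate WT from Sp3+/- in the fit of all 8 libraries. *Acta2*, smooth muscle actin, was at 5569, 5067, 5448 and 10744 CPM in WT and 6247, 5558, 6925 and 7804 CPM in Sp3+/-. WT 697-3 stood above the other WT libraries and above all Sp3+/- libraries, and the log2 fold change was -0.01 (-0.59 to 0.57). *Myh11*, the smooth muscle myosin heavy chain, was at 479, 574, 788 and 1818 CPM in WT, 797, 898, 1231 and 1058 CPM in Sp3+/- and 49.5, 79.7 and 23.4 CPM in Sp3-/-. Its Sp3+/- values lay inside the WT range at 0.13 (-0.78 to 1.04), and all Sp3-/- values lay far below. *Itga8*, an integrin chain of myofibroblasts, differed by -0.08 (-0.82 to 0.66). Of 20 smooth muscle genes 14 were within 2-fold and 6 within 1.5-fold, 16 were higher and 4 lower, and the median was 0.11. This median was 0.31 without WT 697-3 and -0.05 without both libraries that lack a title ending. Without WT 697-3, 6 of the 20 had p below 0.05 before adjustment (2.70% of all genes), and edgeR called 0 genes. In the fit of all 8 libraries 0 of the 20 had such a p. In Sp3-/- cells 15 of the 20 fell against WT, where 28.1% of all genes were called.

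Cell cycle genes of G1 and S phase had narrower intervals than those of mitosis. *Ccnd3*, a cyclin of G1, was at 116, 116, 102 and 111 CPM in WT and 119.6, 109, 98.0 and 111 CPM in Sp3+/-, at -0.02 (-0.20 to 0.17), against 70.8, 64.7 and 77.7 CPM in Sp3-/-. The WT and Sp3+/- values interleaved, and the Sp3-/- values lay below all of them. *Ccne1*, the cyclin that drives entry into S phase and has 4 GC boxes in the sequence above, was at 16.1, 32.1, 30.2 and 29.1 CPM in WT and 29.3, 25.9, 28.2 and 19.2 CPM in Sp3+/-, a difference of -0.05 (-0.56 to 0.45). The lowest value of each genotype was that of the library without a title ending, and without both the difference was -0.12 (-0.33 to 0.09). *E2f1*, an activator of S phase genes, was at 57.3, 51.4, 52.1 and 50.3 CPM in WT and 53.1, 46.7, 46.4 and 48.5 CPM in Sp3+/-, at -0.11 (-0.28 to 0.06). Among 29 genes of S phase, which include *E2f1* and the phosphatase *Cdc25a* besides replication genes, 26 were within 2-fold and 13 within 1.5-fold. The latter is a smaller share than over all genes (65.1%), and without those 2 libraries 29 and 25 were.

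Genes of G2 and mitosis had wide intervals. *Cdk1*, the kinase of mitotic entry, was at 24.4, 68.4, 55.4 and 45.8 CPM in WT and 49.1, 45.3, 47.1 and 27.6 CPM in Sp3+/-, and *Ccnb2*, its cyclin partner, at 5.90, 33.2, 25.1 and 14.6 and 23.7, 16.8, 17.8 and 7.26 CPM. The libraries without a title ending were again the lowest of their genotype for both genes. The log2 fold changes of -0.18 (-0.87 to 0.51) and -0.24 (-1.42 to 0.93) became -0.24 (-0.56 to 0.07) and -0.31 (-0.95 to 0.34) without them. All 25 genes of the list had lower estimates in Sp3+/-, with a median of -0.17, but their intervals lay within 2-fold for only 2. The direction was not stable, since with single libraries left out the median ran from -0.44 without WT 468-4 to 0.07 without WT 685-2. Without both libraries that lack a title ending 25 of 25 were within 2-fold, at a median of -0.24. The summed level of the list was 315, 1285, 1106 and 734 CPM in WT, 947, 786, 850 and 417 in Sp3+/- and 412, 435 and 195 in Sp3-/-.

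Both lipid genes of the study's list had intervals that reached past 2-fold. *Lpl*, lipoprotein lipase, was at 292, 76.7, 72.6 and 63.7 CPM in WT and 44.8, 63.8, 64.3 and 163 CPM in Sp3+/-, at -0.59 (-1.93 to 0.75). *Fabp4*, a fatty acid carrier, was at 39.0, 13.5, 13.0 and 10.3 CPM in WT and 8.68, 9.30, 10.7 and 37.0 CPM in Sp3+/-, at -0.22 (-1.57 to 1.13). For both genes WT 468-4 and Sp3+/- 697-4 were the highest of their group by a wide margin, and without them the log2 fold change was -0.28 (-0.63 to 0.06) for *Lpl* and -0.34 (-0.69 to 0.01) for *Fabp4*, both within 2-fold. Macrophages also express both genes, and the summed level of 20 macrophage genes was 4481, 943, 819 and 1142 CPM in WT, 491, 784, 862 and 3956 in Sp3+/- and 4209, 14535 and 13436 in Sp3-/-, with the same 2 libraries highest. Whether macrophage RNA plays a part in the lipid values was not tested. Of 18 lipid storage genes 10 were within 2-fold, and 15 were without those 2 libraries.

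Of the vessel and pericyte genes, *Cspg4*, the NG2 proteoglycan of pericytes, was at 68.8, 142, 70.8 and 43.4 CPM in WT and 178, 96.6, 101 and 41.3 CPM in Sp3+/-, at 0.37 (-0.68 to 1.43). Its values overlapped broadly. *Vwf* and *Cd34*, genes of endothelial cells, differed by -0.10 (-1.92 to 1.72) and -0.12 (-0.97 to 0.72). *Cxcl12*, a chemokine made by stromal cells, was at 527, 839, 1442 and 1171 CPM in WT and 702, 1019, 1037 and 465 CPM in Sp3+/-, at -0.29 (-1.09 to 0.50). *Serping1*, the C1 inhibitor of complement, was at 66.9, 70.4, 73.2 and 54.2 CPM in WT, 80.5, 123, 69.6 and 39.5 CPM in Sp3+/- and 548, 284 and 177 CPM in Sp3-/-. It differed by 0.25 (-0.42 to 0.93) between WT and Sp3+/-, with overlap, and every Sp3-/- value was above every value of the 8.

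*Axin2*, a feedback inhibitor and widely used readout of canonical Wnt signalling, was the gene of the study's list with the clearest separation in Sp3+/- cells. It was at 2.42, 2.90, 1.83 and 1.48 CPM in WT, 3.66, 5.18, 3.38 and 4.43 CPM in Sp3+/- and 19.3, 14.5 and 29.3 CPM in Sp3-/-. The 3 genotypes did not overlap, and Sp3+/- lay between the others. The log2 fold change against WT was 0.97 (SE 0.26, 95% interval 0.39 to 1.55), and it was not called (edgeR adjusted p = 0.999943). In the fit of 11 libraries it rose by 3.29 in Sp3-/- against WT (edgeR adjusted p = 3.52e-04) and by 2.32 against Sp3+/- (adjusted p = 0.00132). Of 22 Wnt pathway genes 12 were higher and 10 lower in Sp3+/-, with a median log2 fold change of 0.06, and 10 were within 2-fold. Before adjustment 3 of the 22 had p below 0.05 (2.26% of all genes), *Axin2*, *Rspo1* and *Wnt9a*, all higher in Sp3+/-. *Rspo1* is also on the list of mesothelial genes described below. *Ctnnb1*, which encodes beta-catenin, differed by -0.05 (-0.25 to 0.15) and *Wnt5a*, a ligand of the lung mesenchyme, by 0.01 (-0.35 to 0.37).

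The 10 genes with the smallest p across the genome were *Pcdh11x*, *Olfml2b*, *Wt1os*, *Six2*, *Podxl*, *Satb1*, *Adamts20*, *Rrs1*, *Axin2* and *Ppap2b*, and edgeR called none (0) of them. In all 10 the genotypes did not overlap, which their choice by p from the same 8 values largely fixes. *Pcdh11x*, a protocadherin, was at 16.2, 19.1, 17.6 and 14.7 CPM in WT and 23.2, 26.3, 24.1 and 27.5 CPM in Sp3+/-. Its Sp3+/- values were all higher, by 0.59 (SE 0.10, 95% interval 0.36 to 0.83), the smallest p of the comparison before adjustment. *Olfml2b*, a secreted olfactomedin-like protein, was at 95.3, 101, 81.0 and 124 CPM in WT and 155, 163, 168 and 151 CPM in Sp3+/-, with a gap between the groups and a difference of 0.67 (0.39 to 0.95). DESeq2 called these 2 genes alone, both at an adjusted p = 0.00503 and with log2 fold changes of 0.60 and 0.67, and 394 genes had p below 0.05 before adjustment there.

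*Podxl*, a sialomucin of podocytes and mesothelium, was at 6.63, 12.1, 4.30 and 5.83 CPM in WT, 16.1, 26.7, 13.1 and 21.6 CPM in Sp3+/- and 87.1, 39.7 and 72.5 CPM in Sp3-/-. The 3 genotypes did not overlap, and Sp3+/- differed from WT by 1.46 (0.68 to 2.23). *Wt1os*, transcribed opposite the mesothelial factor *Wt1*, was at 1.18, 1.31, 0.893 and 1.12 CPM in WT, 2.15, 3.12, 1.88 and 2.88 CPM in Sp3+/- and 7.18, 3.86 and 4.81 CPM in Sp3-/-, at 1.17 (0.61 to 1.73). It was also ordered by genotype. *Satb1*, a chromatin organiser, was at 15.1, 15.8, 14.5 and 16.7 CPM in WT, 22.6, 22.7, 19.7 and 18.2 CPM in Sp3+/- and 41.9, 24.6 and 26.2 CPM in Sp3-/-, at 0.43 (0.20 to 0.67), and had the same order. In these genes the choice by p largely fixed the step from WT to Sp3+/-. The step to Sp3-/- is shared with the lack of a title ending.

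The remaining genes did not all follow that order. *Six2*, a homeobox factor of mesenchymal progenitors, was at 0.478, 0.207, 0.568 and 0.444 CPM in WT, 0.932, 1.25, 1.39 and 2.93 CPM in Sp3+/- and 0.223, 0.331 and 0.410 CPM in Sp3-/-, so it was highest in Sp3+/-, by 1.89 (0.89 to 2.89) against WT. *Rrs1*, a ribosome assembly factor, differed by 0.29 (0.12 to 0.46) and *Adamts20*, a secreted metalloproteinase, by 1.53 (0.63 to 2.43). *Ppap2b*, a lipid phosphatase, was at 72.5, 77.2, 74.0 and 65.6 CPM in WT and 64.6, 56.2, 53.8 and 58.7 CPM in Sp3+/-, and it alone of the 10 was lower, at -0.30 (-0.49 to -0.12). Its WT and Sp3+/- values did not overlap, and Sp3-/- libraries had 55.4, 60.6 and 98.0 CPM, on both sides of the WT range.

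**Figure D4:**
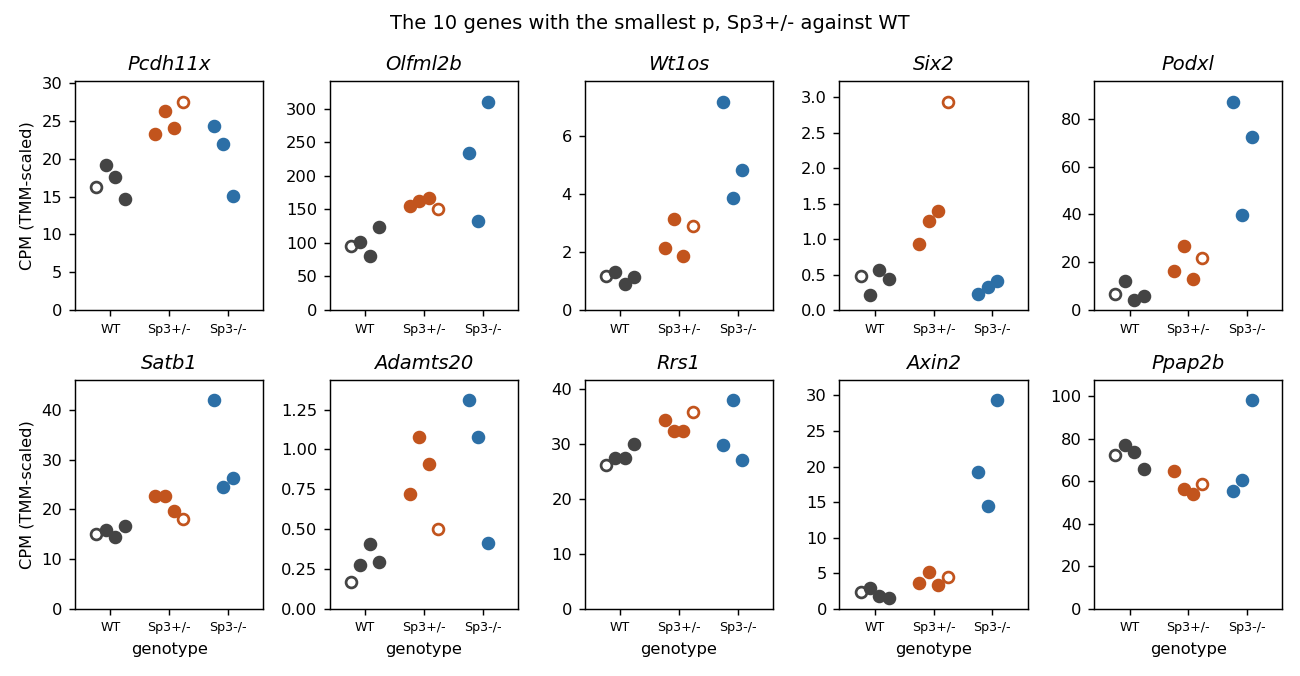
Level (CPM after TMM scaling, axes from 0) of the 10 genes with the smallest p between Sp3+/- and WT, in each library by genotype. Points are libraries, open points the WT and Sp3+/- libraries without a title ending. WT and Sp3+/- did not overlap in any panel, and none of the 10 passed the edgeR adjusted threshold.

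Mesothelial genes, which mark the cell layer that covers the lung, were the list with the highest median, 0.66 on the log2 scale over 9 tested genes against -0.01 over all genes. All 9 were higher in Sp3+/-, none (0) was called by edgeR, 4 had p below 0.05 before adjustment (2.26% of all genes), and no (0) interval lay within 2-fold. *Wt1*, a transcription factor of the mesothelium, was at 38.4, 43.1, 25.4 and 37.9 CPM in WT and 53, 58.6, 41.1 and 63.3 CPM in Sp3+/-, with overlap at a single pair of libraries and a difference of 0.59 (0.17 to 1.00). *Msln*, which encodes mesothelin, was at 298, 312, 143 and 81.8 CPM in WT and 322, 652, 358 and 224 CPM in Sp3+/-, at 0.91 (-0.15 to 1.97), and *Upk3b*, a uroplakin of mesothelium, at 603, 539, 297 and 329.5 and 658, 876, 478 and 757 CPM, at 0.66 (0.04 to 1.27). For both, Sp3+/- 685-5 was the highest of the 8 libraries.

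The summed level of the mesothelial genes was 1902, 1591, 903 and 796 CPM in WT, 1803, 2868, 1614 and 1920 in Sp3+/- and 6707, 3371 and 2322 in Sp3-/-. WT 468-4 thus lay inside the Sp3+/- range. The median log2 fold change was 0.43 without Sp3+/- 685-5, 0.86 without WT 468-4 and 0.88 without both libraries that lack a title ending. The number of the 9 genes with p below 0.05 before adjustment was 3, 6 and 9 in these 3 fits and 8 among libraries with the ending 3, against 0.984%, 3.17%, 3.15% and 4.88% of all genes, and edgeR called 0 genes in each. With single libraries left out, that number was lowest without either WT library of low summed level. It was 2 of 9 without the WT library at 903 CPM (median 0.50, 2.11% of all genes). Without the WT library at 796 CPM it was also 2 of 9 (median 0.54, 2.70% of all genes). *Podxl* and *Wt1os*, described above, were likewise higher in Sp3+/-. Whether the amount of mesothelial cells plays a part in their values was not tested.

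Other cell types gave wide intervals and no calls. Of 20 macrophage genes 1 was within 2-fold, with a median of -0.34 that was 0.64 without WT 468-4 and -1.31 without Sp3+/- 697-4. Without both, 14 of 19 were within 2-fold, at -0.34, and 4 of the 19 had p below 0.05 before adjustment (3.15% of all genes). With the title ending as covariate 7 of 20 did (4.74% of all genes), compared with 0 of 20 in the fit of genotype alone, and edgeR called 0 genes in each. Of 12 endothelial genes 3 were within 2-fold and 2 had p below 0.05 before adjustment (2.26% of all genes), and *Pecam1*, a defining marker, was at 0.122 to 7.70 CPM. The 7 neural and glial genes were all lower in Sp3+/-, with a median of -1.65, and 3 had p below 0.05 before adjustment (2.26% of all genes). Without WT 468-4, 6 of them were tested, with a median of -0.27, and 0 had such a p (3.17% of all genes). Of 27 lung mesenchyme genes 18 were within 2-fold, with a median of -0.04.

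**Figure D5:**
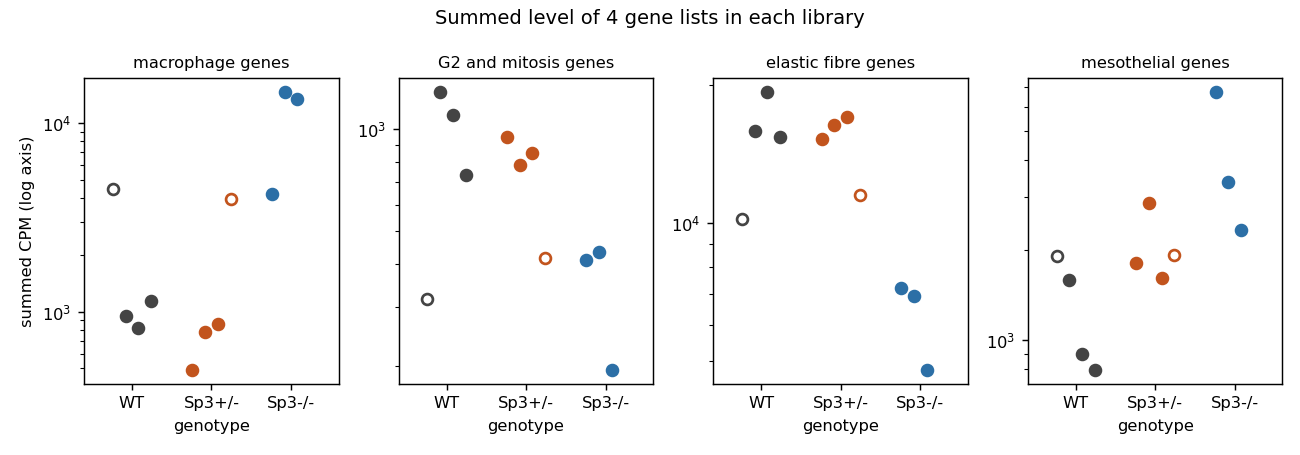
Summed CPM (log axis) of macrophage, G2 and mitosis, elastic fibre and mesothelial genes in each library by genotype. Points are libraries, open points the WT and Sp3+/- libraries without a title ending. Those 2 were the highest of their genotype for macrophage genes (4481 and 3956 CPM) and the lowest for G2 and mitosis genes (315 and 417 CPM) and elastic fibre genes (10187 and 11495 CPM).

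The genes with the widest intervals among the well expressed show what these 8 libraries cannot bound. *Cd36*, a fatty acid transporter, was at 421, 58.2, 58.7 and 43.9 CPM in WT and 18.4, 34.7, 44.9 and 174 CPM in Sp3+/-, at -1.11 (-3.20 to 0.99). *Ctss*, a lysosomal protease of macrophages, was at 398, 52.5, 40.8 and 54.7 CPM in WT and 22.2, 41.6, 50.2 and 230.04 CPM in Sp3+/-, at -0.67 (-2.82 to 1.48). Both were highest in WT 468-4 and next in Sp3+/- 697-4, and without these 2 they were at -0.68 (-1.34 to -0.02) and -0.35 (-0.97 to 0.28). *Igf2*, a fetal growth factor, was at 38.3, 779, 442 and 69.3 CPM in WT and 509, 331, 302 and 30.0 CPM in Sp3+/-, at -0.16 (-2.46 to 2.13), and *H19*, the imprinted RNA next to it, at 24.4, 596, 345 and 44.5 and 427, 323, 201 and 20.2 CPM, at -0.04 (-2.48 to 2.4). *Igf2* and *H19* were lowest in those same 2 libraries, and without them were at -0.16 (-1.76 to 1.44) and -0.03 (-1.78 to 1.71). *Pdgfra*, a receptor of lung fibroblasts, was at 24.1, 188, 143 and 45.5 CPM in WT and 145, 121, 91.0 and 10.4 CPM in Sp3+/-, also lowest in them, at -0.11 (-1.94 to 1.72) with them and -0.06 (-1.09 to 0.97) without.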

How the data were processed

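The authors deposited counts of reads per gene for each library. Per the study's methods these were 50-base single-end TruSeq reads, checked with FastQC 0.10.1, aligned to mm10 with STAR 2.4.5a and counted with htseq-count. The annotation and strand setting are not given in the sources used here. Groups came from the genotype labels. The members and gene lists were chosen with earlier results of these data known. The rows that name no gene held 38.8% to 40.9% of the counts of the 8 libraries and were removed.

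Genes with CPM above 1 in at least 1 of the 8 libraries entered edgeR 4.0.16 (R 4.3.3): TMM scaling, robust quasi-likelihood fit, genotype as the only term, Benjamini-Hochberg adjustment. The standard error is the log2 fold change divided by the square root of F, and the 95% interval uses the fit's degrees of freedom. An interval within 1.5-fold or 2-fold was read as bounding the change. Sp3-/- values come from a fit of all 11 libraries. Named genes were *Sp3* and its family, the genes that the study's text names, the 10 smallest p, the narrowest and widest intervals over 5 log2 CPM, and the genes of each list with the largest difference and the narrowest interval. The other genes named (*Col1a1*, *Col1a2*, *Pdgfra*, *Xist*, *Ddx3y* and marker genes) were added after their values were seen. Alternatives were DESeq2 1.42.0, limma-voom (limma 3.58.1), other scalings and filters, covariates for the title endings and leaving out libraries. Scripts were tested on simulated data.

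Promoter windows were found for 79.2% of the tested genes, fewer than 80%, so a comparison of genes with and without GC boxes would be void and was not made. Intervals cover counting error and the spread between libraries only. Values of some genes are not reported here.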

Additional observations from a re-analysis of the deposited data

Results flagged for a closer look

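Among 162 groups of 4 libraries looked at (55 genes and 26 lists, WT and Sp3+/-), 17 had a single library whose gap to the nearest of the other 3 was past Dixon's 95% critical value. For genes chosen without regard to their values chance gives about 1 in 20. That rate does not apply here, since *Cd36*, *Ctss* and *Ddx3y* were among the genes chosen for wide intervals. Some of the genes are also members of the lists. All values that follow are log2 CPM. In WT 468-4, *Ccne1* was at 4.02 (others 4.86 to 5.01), *Lpl* at 8.19 (others 5.995 to 6.26), *Ctss* at 8.64 (5.35 to 5.77) and *Cd36* at 8.72 (5.46 to 5.88). The mean over macrophage genes in that library was 6.47 (4.18 to 4.46), over the 2 tested erythroid genes 1.56 (0.27 to 0.39) and over stress and early response genes 4.79 (4.2 to 4.22).

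In Sp3+/- 697-4, *Eln* was at 6.41 (others 9.24 to 9.60), *Cdk1* at 4.79 (5.50 to 5.62) and *Fabp4* at 5.21 (3.13 to 3.43). The mean over elastic fibre genes was 7.22 (8.03 to 8.10), over lipid storage genes 5.32 (4.93 to 4.97) and over stress and early response genes 4.55 (4.10 to 4.15). These are the 2 libraries without a title ending, and the cause of their distance was not tested. In Sp3+/- 685-5, *Ddx3y* was at -2.74 (6.41 to 7.00), the mean over sex-linked genes at -0.87 (3.86 to 4.30) and the mean over mesothelial genes at 7.68 (6.86 to 6.98). *Acta2* in WT 697-3 was at 13.39 (12.31 to 12.44).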

How the results depend on the processing

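The count of called genes was 0 under every alternative run but DESeq2, which gave 2, *Olfml2b* at 0.67 and *Pcdh11x* at 0.60. With single libraries left out it was 0 throughout, and the count before adjustment ran from 136 (without Sp3+/- 685-5) to 434 (without WT 468-4). It was 387 by limma-voom, 656 with the presence of a title ending as covariate, 428 without both libraries that lack one, and 657 among libraries with the ending 3. The share of intervals within 2-fold ran from 79.6% to 83.0% with a library left out and was 89.97% with the covariate and 59.3% over all 19925 genes with a count. That covariate and leaving out both libraries were alternatives chosen after seeing the data. The *Sp3* log2 fold change ran from -0.61 to -0.35 with a library left out and was -0.30 (-0.85 to 0.25) among libraries with the ending 3. Of 4042 values of 194 named genes under 21 alternatives, 3916 stayed within 1 SE and 124 moved further. Of 567 medians of lists, 558 stayed within that range. None (0) of the values was called with the opposite sign, but such a call could hardly occur, since DESeq2 alone called any gene. The first number of the titles is shared across genotypes. Deviations from the genotype mean correlated at -0.63 to 0.23 for pairs with the same number and at -0.54 to 0.72 for other pairs. The highest value was that of WT 468-4 with Sp3+/- 697-4, whose distance from the rest dominates, so the check could not decide on pairing. With the first number as a replicate block 0 genes were called, 210 had p below 0.05, and *Sp3* was at -0.45 (-0.96 to 0.07). With 4 libraries a genotype, genes under 1 CPM could rarely be bounded, at 17.3% within 2-fold.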

Other observations

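*Gapdh*, a glycolytic enzyme that most cells transcribe at a high level, was counted at 1.52, 1.87, 2.15 and 2.34 CPM in WT and 2.01, 1.89, 2.81 and 2.04 CPM in Sp3+/-, a log2 difference of 0.16 (-0.35 to 0.68).

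With the presence of a title ending as a covariate, genes outside the list above came among the smallest p, and 2 are named here after their values were seen. *Gdf10*, a secreted member of the BMP family, was at -1.41 (-1.96 to -0.85) and *Anpep*, a membrane peptidase, at -0.50 (-0.72 to -0.28), both lower in Sp3+/- and neither called, with an edgeR adjusted p = 0.935 for each.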
